A study of Mus musculus with 20 samples.

Results

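The fibrillar collagens measured here are the products of 9 genes, Col1a1, Col1a2, Col3a1, Col5a1, Col5a2, Col5a3, Col11a1, Col24a1 and Col27a1, chosen by name among the 51826 genes of the deposited count table. All 9 were among the 20407 genes that passed the filter on low counts (5 counts or more in 5 libraries or more) and were tested. The cells were primary renal myofibroblasts of C57BL/6J mice, grown out of minced kidney and sequenced at passage 2 in medium with serum. They came from WT mice or from WWP2-/- littermates, which lack the full-length and N-terminal isoforms of the E3 ubiquitin ligase WWP2, and were left untreated or were treated with the cytokine TGFb1, which gave 4 groups of 5 libraries each. The labels give no age, dose or time. The study's text states a dose and time of TGFb1 for such cells and says of its experiments in general that a data point stands for an animal or for cells from an animal, but neither source ties each library to an animal, so p-values measure the spread between these libraries.

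Fibrillar collagens are the rod-shaped proteins of the interstitial matrix, in which 3 chains wind into a triple helix. Type I collagen is built from the chains of Col1a1 and Col1a2 and type III from Col3a1, and both fill the scar of a fibrotic kidney. The chains of Col5a1, Col5a2, Col5a3 and Col11a1 form the minor types V and XI, which lie within the fibrils of the major types. Both minor types control where fibrils start and how wide they grow. Col24a1 and Col27a1 encode fibrillar chains known mainly from bone and cartilage. TGFb1 is a known inducer of collagen genes in fibroblasts, partly through Smad proteins.

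Values are given as CPM, the count of a gene scaled by the total of its library. The totals ran from 47520759 to 73063697 counts. Wwp2 lay between 15.5 and 24 CPM in the WWP2-/- libraries and between 46.7 and 61.6 CPM in the WT libraries, so all 10 libraries labelled KO were below all 10 labelled WT. Counts over the whole gene do not separate its isoforms. Xist, the RNA of the inactive X chromosome, was at 35.5 to 297 CPM in 11 libraries and at or below 0.126 CPM in the other 9. All but 2 of the 10 WT libraries had Xist (not WT replicate 4 and WT TGFb1 replicate 3), and only 3 of the 10 WWP2-/- libraries did (WWP2-/- replicates 1 and 3 and WWP2-/- TGFb1 replicate 1). Xist is normally made in female and not in male cells, and the labels do not give the sex of the animals. Libraries with Xist were thus unequally divided between the genotypes, and a difference between genotypes is in part one between libraries with and without Xist. Values with Xist as a covariate are therefore given beside the calls of the 9 genes. For the other genes of the pathway only the number of calls with this covariate is given. Pdgfra, a defining fibroblast receptor, followed the same division, at 15.2 to 161 CPM in the 11 libraries with Xist and at 0.594 to 1.91 CPM in the 9 without, whereas Pdgfrb was at 114 CPM or more in every library. Acta2, the actin that marks myofibroblasts, was at 39.7 CPM in WWP2-/- replicate 3 and 49 CPM in WWP2-/- TGFb1 replicate 1, against 945 to 3337 CPM in the other 18 libraries. These 4 libraries, the 2 WT libraries without Xist and the 2 WWP2-/- libraries low in Acta2, stood apart in several collagens. Both WWP2-/- libraries low in Acta2 had Xist, so leaving out either pair makes the division by Xist between the genotypes more unequal. Over the tested genes, deviations from the group means were correlated between the 2 WT libraries (r = 0.727) and between the 2 WWP2-/- libraries (r = 0.907). The labels do not say whether the libraries of such a pair share an animal or culture.

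The plot of levels by library shows the 9 transcripts in all 20 libraries.

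**Figure D1:**
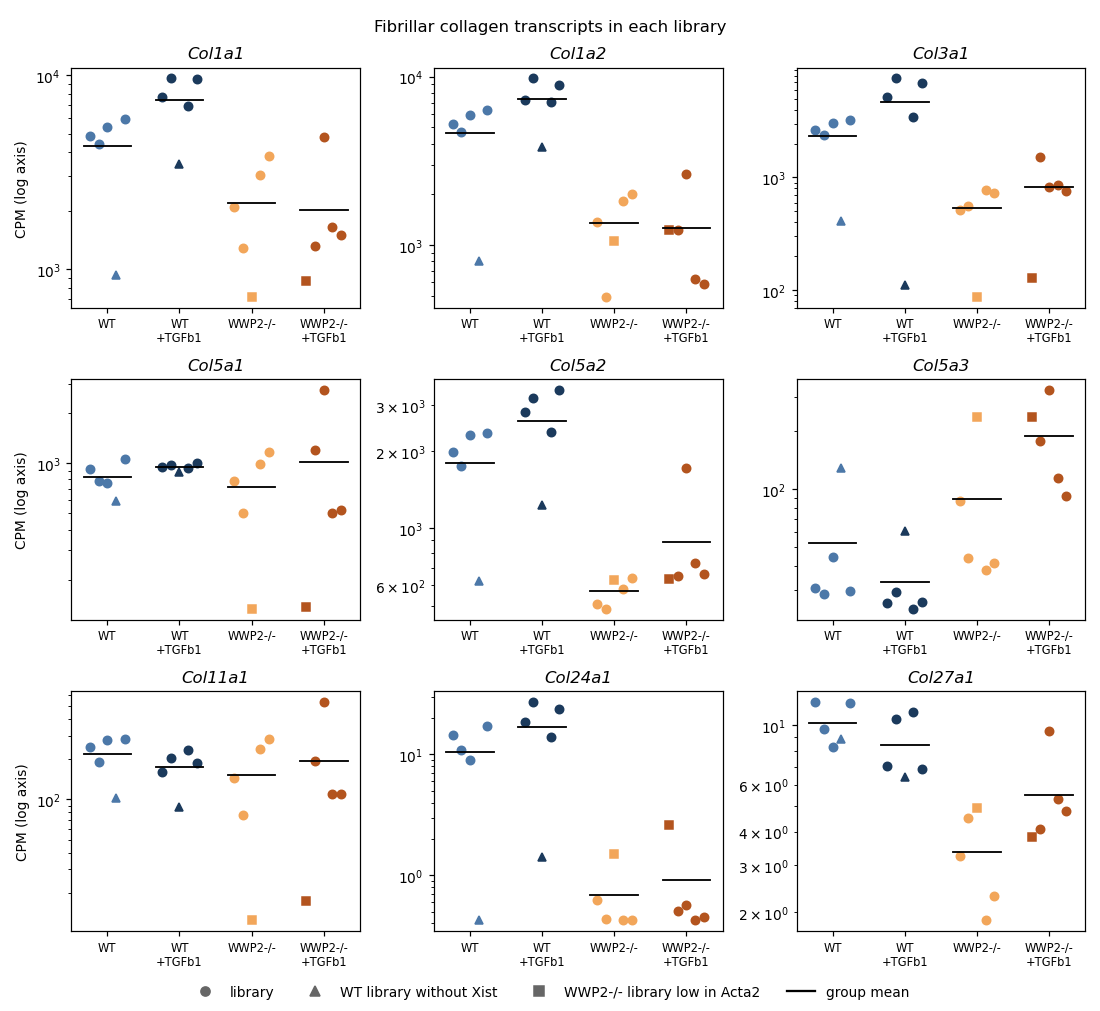
CPM of each fibrillar collagen (log axis) in the 20 libraries by group, 1 point per library with the group mean as a line. Triangles are the 2 WT libraries without Xist and squares the 2 WWP2-/- libraries low in Acta2. The 5 WWP2-/- libraries treated with TGFb1 lie below all treated WT libraries for Col1a2 and above them for Col5a3.

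Levels of different genes were compared per kilobase of exon, with all annotated exons of a gene merged. These came to 6563 bases for Col1a1 and 12426 for Col1a2, so the order depends on this length. In CPM the means in untreated WT cells were 4306 for Col1a1 and 4592 for Col1a2. In untreated WT cells the order was Col1a1 at 656 ± 300.0 (SD, n = 5) CPM per kilobase, Col1a2 at 370 ± 178, Col3a1 at 239 ± 115, Col5a2 at 188 ± 73.2, Col5a1 at 97.2 ± 20.8, Col11a1 at 17.2 ± 5.91, Col5a3 at 7.71 ± 6.32, Col24a1 at 1.36 ± 0.835 and Col27a1 at 0.784 ± 0.139. The first 4 and the last pair were each closer to their neighbours in this order than the larger SD of the pair. Treated WWP2-/- cells had another order, with Col1a1 at 309 ± 241 CPM per kilobase, Col5a1 at 120 ± 122, Col1a2 at 102 ± 67.2, Col5a2 at 91.9 ± 48.9 and Col3a1 at 83.2 ± 50.1, and none of these 5 neighbours were apart by more than the larger SD. Col5a3 at 27.7 ± 13.8 stood in the place that Col11a1 had in WT cells, and Col24a1 at 0.120 ± 0.125 CPM per kilobase was last.

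For 7 of the 9 genes a promoter sequence was at hand, namely for all but Col1a1 and Col5a2. The 250 bases before the RefSeq start of transcription (build GRCm38.p6) are shown for Col1a2 and Col24a1, which were lower in treated WWP2-/- cells, for Col5a3, which was higher, and for Col5a1 and Col11a1, whose levels moved together most closely from library to library. Col1a2 is at chr6:4505368-4505617 (plus strand), Col24a1 at chr3:145292222-145292471 (plus), Col5a3 at chr9:20815068-20815317 (minus), Col5a1 at chr2:27886175-27886424 (plus) and Col11a1 at chr3:114030290-114030539 (plus). The annotation used for gene positions starts Col1a2 earlier, at 4504814, so its window lies within the annotated gene. The same is true of Col27a1, whose window is not shown. Capitals mark 4 motifs searched on both strands, the Smad-binding motif CAGAC, the GC box GGGCGG, the CCAAT box CCAAT and the TATA box TATAAA, none of which overlapped another. Each sequence reads 5′ to 3′ on the strand of its gene.
Col1a2: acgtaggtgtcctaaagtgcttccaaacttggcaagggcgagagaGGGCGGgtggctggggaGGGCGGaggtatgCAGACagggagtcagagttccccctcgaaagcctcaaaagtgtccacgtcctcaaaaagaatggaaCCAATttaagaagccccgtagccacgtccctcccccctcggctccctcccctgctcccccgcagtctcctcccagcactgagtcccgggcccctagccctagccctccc
Col24a1: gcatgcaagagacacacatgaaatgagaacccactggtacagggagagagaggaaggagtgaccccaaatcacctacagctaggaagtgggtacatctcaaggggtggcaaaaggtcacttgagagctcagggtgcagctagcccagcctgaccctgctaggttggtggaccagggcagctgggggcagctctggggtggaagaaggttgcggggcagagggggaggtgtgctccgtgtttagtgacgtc
Col5a3: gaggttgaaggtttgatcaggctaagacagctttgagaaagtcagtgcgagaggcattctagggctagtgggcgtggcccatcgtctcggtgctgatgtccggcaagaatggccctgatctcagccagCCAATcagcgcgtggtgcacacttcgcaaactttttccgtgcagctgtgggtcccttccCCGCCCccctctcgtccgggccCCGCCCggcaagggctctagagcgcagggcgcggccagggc
Col5a1: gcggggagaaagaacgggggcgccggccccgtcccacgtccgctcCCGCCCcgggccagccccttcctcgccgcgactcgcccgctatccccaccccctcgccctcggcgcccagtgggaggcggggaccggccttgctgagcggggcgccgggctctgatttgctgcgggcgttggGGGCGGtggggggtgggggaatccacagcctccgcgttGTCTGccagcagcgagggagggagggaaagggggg
Col11a1: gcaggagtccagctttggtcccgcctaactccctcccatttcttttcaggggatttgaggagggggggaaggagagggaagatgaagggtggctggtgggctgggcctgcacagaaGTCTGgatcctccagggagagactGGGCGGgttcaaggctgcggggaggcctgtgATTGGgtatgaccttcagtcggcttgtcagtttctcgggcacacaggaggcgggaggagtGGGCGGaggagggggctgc

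CAGAC was found in 5 of the 7 promoters, against 42.2% of the 32817 mouse promoters of the same length, and GGGCGG in 5 of 7, against 32.7%. CCAAT stood in 3 of 7 (Col1a2, Col5a3 and Col11a1) and in 33.8% of all promoters, and TATAAA in 1 of 7 (Col3a1) and in 12.4%. The Col24a1 window held none of the 4, whereas Col1a2, Col5a1 and Col11a1 each held CAGAC together with 2 copies of GGGCGG, and Col5a3 held 2 copies of GGGCGG and 1 CCAAT. A match of letters is a description of the window and not a bound site.

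One question of the study for these cells was whether the loss of WWP2 changes the matrix genes that they express. The study also used their RNA for other gene sets, such as those of proliferation. With TGFb1, 5 of the 9 fibrillar collagens differed between the genotypes at an adjusted p below 0.05. Col1a1, Col1a2, Col5a2 and Col24a1 were lower in WWP2-/- cells and Col5a3 was higher. Over all genes tested, 3.96% were called lower and 2.1% higher in this comparison, and the median log2 fold change was -1.68 for the 9 genes and 0.05 for all genes. All tests are edgeR's quasi-likelihood tests with 20 libraries in 1 fit and Benjamini-Hochberg adjustment over the 20407 genes. The count was 6 of 9 without the 2 WT libraries that lack Xist, 6 of 9 without the 2 WWP2-/- libraries low in Acta2, and 2 of 9 with Xist as a covariate. Calls over all genes, in either direction, moved from 1238 in the main fit to 3314, 3454 and 585 in these settings. Without the WT libraries that lack Xist, all treated WT libraries had it. Without the WWP2-/- libraries low in Acta2, no treated WWP2-/- library had it. Both exclusions thus made the division by Xist between the genotypes more unequal. The count was 2 of 9 members without WT TGFb1 replicate 2 or 5 and 3 of 9 without WWP2-/- TGFb1 replicate 2, 4 or 5. Calls over all genes were then 464 and 493, and 715, 575 and 656.

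Col1a2, on chromosome 6 (4504814 to 4541544, plus strand), encodes the second chain of type I collagen. With TGFb1 it was at 7226, 9733, 3830, 7040 and 8878 CPM in WT replicates 1 to 5, and at 1236, 1228, 2655, 630 and 590 CPM in WWP2-/- replicates 1 to 5. All 5 WWP2-/- libraries were below all 5 WT libraries. Groups that did not overlap in either direction were found for 5.53% of all genes in this comparison. Col1a2 fell by 2.63 on the log2 scale (SE 0.57, adjusted p = 0.0142, edgeR), which is 6.17-fold. The call remained when each of the 10 libraries was left out in turn (adjusted p from 0.00619 to 0.0410) and was lost with Xist as a covariate (log2 fold change -2.09, adjusted p = 0.0796). The 4 treated WT libraries with Xist had 7040 to 9733 CPM and the 1 treated WWP2-/- library with Xist had 1236 CPM, while without Xist the 1 WT library had 3830 CPM and the 4 WWP2-/- libraries 590 to 2655 CPM.

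Col1a1, on chromosome 11 (94936224 to 94953042, plus strand), encodes the main chain of type I collagen and was the most abundant of the 9 per kilobase in every group. The treated WT replicates held 7756, 9622, 3491, 6953 and 9580 CPM and the treated WWP2-/- replicates 863, 1317, 4811, 1639 and 1497 CPM. The third replicate of each genotype crossed over, and the other 4 WWP2-/- libraries were below every WT library. Col1a1 fell by 1.98 on the log2 scale (SE 0.58, adjusted p = 0.0492). The call was close to the threshold and was lost when any of 8 of the 10 libraries was left out (adjusted p from 0.0711 to 0.111), the exceptions being the third replicate of each genotype. It was also lost with Xist as a covariate (-1.95, adjusted p = 0.163).

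Col3a1, on chromosome 1 (45311538 to 45349706, plus strand), encodes the only chain of type III collagen. With TGFb1 its values were 5195, 7558, 112, 3419 and 6940 CPM in the WT replicates and 128, 1515, 821, 858 and 762 CPM in the WWP2-/- replicates. A single WT library, replicate 3 without Xist, was below all WWP2-/- libraries, and the other 4 were above all of them. The log2 fold change was -2.70 (SE 0.83, adjusted p = 0.0595), which missed the threshold, and without WT TGFb1 replicate 3 it was -3.01 (adjusted p = 0.00857). Without the 2 WWP2-/- libraries low in Acta2 it was -2.42 (adjusted p = 0.0441), and with Xist as a covariate -2.58 (adjusted p = 0.342). DESeq2's Wald test also called Col3a1 lower (adjusted p = 0.00646).

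The 3 chains of type V collagen differed from each other in these comparisons. Col5a2 (chromosome 1, 45374321 to 45503282, minus strand) was at 2829, 3220, 1234, 2367 and 3436 CPM in the treated WT replicates and at 638, 653, 1718, 734 and 666 CPM in the treated WWP2-/- replicates, with the third replicates again crossing over. It fell by 1.68 on the log2 scale (SE 0.40, adjusted p = 0.0206). This call was lost without WT TGFb1 replicate 2 or 5 or without WWP2-/- TGFb1 replicate 2, 4 or 5 (adjusted p from 0.0518 to 0.0579), and with Xist as a covariate (-1.17, adjusted p = 0.148).

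Col5a3 (chromosome 9, 20770050 to 20815067, minus strand), which encodes another chain of type V collagen, was the only one of the 9 called higher in treated WWP2-/- cells. In the treated WT replicates it was at 26.0, 29.3, 60.8, 24.2 and 26.0 CPM, and in the treated WWP2-/- replicates at 235, 178, 324, 114 and 92.1 CPM. Every WWP2-/- library was above every WT library. The log2 fold change was 2.46 (SE 0.57, adjusted p = 0.0182), or 5.5-fold. Leaving out WT TGFb1 replicate 2 or 5 moved the adjusted p to 0.0508 and 0.0518, and it was 0.0363 with Xist as a covariate.

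Col5a1 (chromosome 2, 27886425 to 28039514, plus strand), the chain found in nearly all type V molecules, and Col11a1 (chromosome 3, 114030540 to 114220718, plus strand), its close relative of type XI, were both not called between the genotypes. Treated WT libraries held Col5a1 between 883 and 1008 CPM, whereas treated WWP2-/- libraries held 137, 1197, 2732, 502 and 524 CPM. The coefficient of variation was 4.84% in WT and 101% in WWP2-/- cells, a contrast that was not tested. The lowest and the highest of these values were in WWP2-/- TGFb1 replicates 1 and 3. Col11a1 was at 161, 205, 87.5, 233 and 188 CPM in treated WT and at 17.4, 192, 533, 109 and 111 CPM in treated WWP2-/- cells. Their log2 fold changes were 0.04 (SE 0.59, adjusted p = 0.983) for Col5a1 and 0.05 (SE 0.72, adjusted p = 0.979) for Col11a1. Without WWP2-/- TGFb1 replicate 3 these values became -0.90 and -0.95 (adjusted p = 0.293 and 0.414), so no direction is given for either. Reads over the 99 and 113 exon bases that Col5a1 shares with 2810430I11Rik and Gm13372 on the opposite strand cannot be told apart.

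Col24a1 (chromosome 3, 145292472 to 145552011, plus strand) had the largest fold change of the 9 at a low level. Treated WT replicates were at 18.5, 27.1, 1.43, 14.0 and 23.7 CPM and treated WWP2-/- replicates at 2.62, 0.512, 0.568, 0.424 and 0.456 CPM. Only WT replicate 3 was within the range of the WWP2-/- libraries. Col24a1 fell by 4.34 on the log2 scale (SE 0.90, adjusted p = 0.0129), and the call remained when each library was left out in turn (adjusted p from 0.00278 to 0.0381). With Xist as a covariate the log2 fold change shrank to -2.51 (adjusted p = 0.0268). Over all 20 libraries, the 8 WT libraries with Xist held 9.06 to 27.1 CPM, and every other library, with or without Xist, held 0.424 to 2.62 CPM.

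Col27a1 (chromosome 4, 63214004 to 63334991, plus strand) was at 7.05, 10.6, 6.38, 11.2 and 6.85 CPM in treated WT and at 3.83, 4.08, 9.5, 5.30 and 4.77 CPM in treated WWP2-/- cells. Its log2 fold change was -0.73 (SE 0.31, adjusted p = 0.157). Without WWP2-/- TGFb1 replicate 3, which held the highest value of its group in 7 of the 9 genes, it was -1.11 (adjusted p = 0.0307).

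In untreated cells 3 of the 9 genes differed between the genotypes, all lower in WWP2-/- cells, against 0.622% of all genes called lower and 0.103% called higher. These were Col5a2, Col24a1 and Col27a1. The count was 5 without the WT libraries that lack Xist, 2 without the WWP2-/- libraries low in Acta2 and 1 with Xist as a covariate. Calls over all genes, in either direction, moved from 148 in the main fit to 1103, 270 and 79 in these settings. Here too both exclusions made the division by Xist between the genotypes more unequal. Leaving out any single WT library other than replicate 4, or any of WWP2-/- replicates 1, 4 and 5, brought the member count to 0. Calls over all genes were then between 1 and 35. Leaving out WWP2-/- replicate 2 or 3 brought the member count to 1, with 69 and 55 calls over all genes. The median log2 fold change of the 9 was -1.68, against 0.08 for all genes.

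Untreated Col27a1 was at 12.2, 9.70, 8.28, 8.85 and 12.1 CPM in WT and at 3.24, 4.51, 4.91, 1.86 and 2.30 CPM in WWP2-/- cells. All 5 WWP2-/- libraries were below all 5 WT libraries, a pattern that 2.82% of all genes showed in one direction or the other. Col27a1 fell by 1.68 on the log2 scale (SE 0.32, adjusted p = 0.0255), and it was the only member called in this comparison with Xist as a covariate (-1.54, adjusted p = 0.0459). The call was lost without any of 7 libraries, WT replicates 1, 2, 3 and 5 and WWP2-/- replicates 1, 4 and 5 (adjusted p from 0.0508 to 0.0936).

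Col24a1 in untreated cells was at 14.4, 11, 9.06, 0.424 and 17.1 CPM in WT and at 0.630, 0.437, 1.5, 0.426 and 0.424 CPM in WWP2-/- cells. WT replicate 4, the untreated WT library without Xist, was among the lowest of all 10 libraries. Col24a1 fell by 4.01 on the log2 scale (SE 0.89, adjusted p = 0.0432), and the call remained only without WT replicate 4 when single libraries were left out (adjusted p = 0.00371, otherwise from 0.0613 to 0.147). Among the 4 untreated libraries without Xist, the WT library was at 0.424 CPM and the 3 WWP2-/- libraries at 0.424 to 0.437 CPM, and with Xist as a covariate the log2 fold change was -2.29 (adjusted p = 0.0628).

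Untreated Col5a2 was at 1983, 1746, 2295, 623 and 2351 CPM in WT and at 510, 487, 628, 582 and 642 CPM in WWP2-/- cells, and WT replicate 4 was again within the WWP2-/- range. Col5a2 fell by 1.74 on the log2 scale (SE 0.40, adjusted p = 0.0494). This call too remained only without WT replicate 4 (adjusted p = 0.00450, otherwise from 0.0810 to 0.158), and it was lost without the WWP2-/- libraries low in Acta2 (-1.81, adjusted p = 0.0551) and with Xist as a covariate (-1.36, adjusted p = 0.125). The 5 untreated WWP2-/- libraries were closer together for Col5a2 than for any other member, with a coefficient of variation of 12.2%.

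The type I and type III chains were not called in untreated cells. Col1a1 was at 4868, 4409, 5391, 934 and 5927 CPM in WT and at 2080, 1275, 718, 3055 and 3807 CPM in WWP2-/- cells (log2 fold change -1.06, SE 0.56, adjusted p = 0.385). Col1a2 was at 5257, 4704, 5877, 802 and 6320 CPM in WT and at 1372, 493, 1050, 1837 and 2001 CPM in WWP2-/- cells (-1.84, SE 0.55, adjusted p = 0.133). Col3a1 was at 2651, 2396, 3057, 413 and 3207 CPM in WT and at 515, 560, 87.4, 772 and 731 CPM in WWP2-/- cells (-2.23, SE 0.81, adjusted p = 0.221). In each of these 3 genes the 4 WT libraries with Xist were above all 5 WWP2-/- libraries and WT replicate 4 was not. Without WT libraries lacking Xist, Col1a2 (-2.16, adjusted p = 0.00944) and Col3a1 (-2.55, adjusted p = 0.0111) passed the threshold and Col1a1 did not (-1.37, adjusted p = 0.127). All 4 untreated WT libraries then had Xist, against 2 of the 5 untreated WWP2-/- libraries. With Xist as a covariate in edgeR none of the 3 was called. The log2 fold changes were then -1.03 for Col1a1, -1.34 for Col1a2 and -2.14 for Col3a1 (adjusted p = 0.463, 0.256 and 0.379).

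Untreated Col5a3 was at 30.9, 28.8, 44.5, 129 and 29.6 CPM in WT and at 86.7, 44.0, 236, 38.3 and 41.5 CPM in WWP2-/- cells. Its log2 fold change of 0.76 (SE 0.54, adjusted p = 0.524) became -0.03 without WWP2-/- replicate 3. The log2 fold changes of Col5a1 (-0.27, SE 0.59) and Col11a1 (-0.61, SE 0.72) were within their errors (adjusted p = 0.851 and 0.715), and WWP2-/- replicate 3 held the lowest values of all libraries for both, at 135 and 12.5 CPM.

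The plot of fold changes sets the 4 comparisons side by side.

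**Figure D2:**
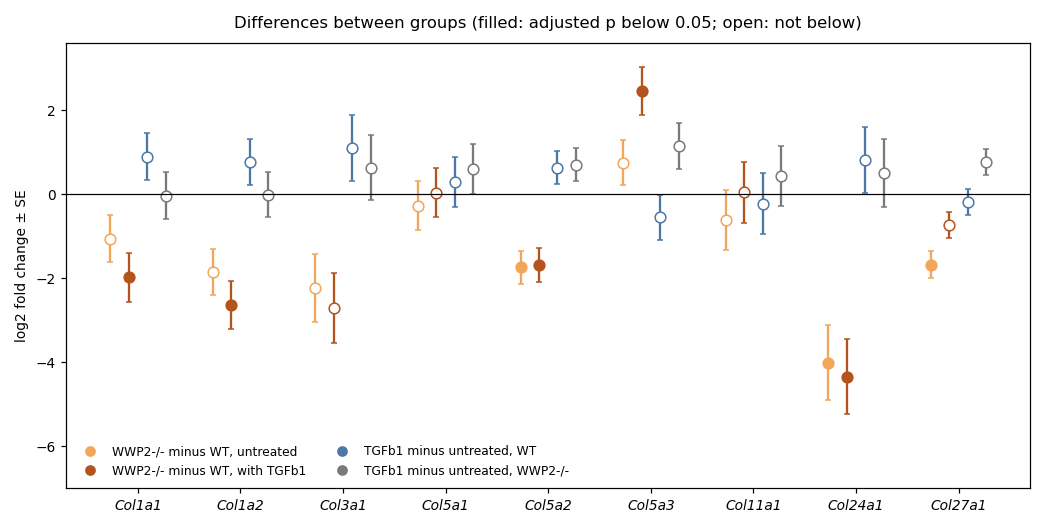
Log2 fold change ± SE of each fibrillar collagen in 4 comparisons, from edgeR on 5 libraries per group, with filled points where the adjusted p was below 0.05. Between genotypes, 3 genes were called untreated and 5 with TGFb1, and no gene was called between treated and untreated cells of either genotype.

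For the response to TGFb1 itself, no member was called in WT or in WWP2-/- cells, and none was called for the interaction of genotype and TGFb1. Treated and untreated libraries were taken as unpaired in these tests. Over all genes edgeR called 0% in each of these 3 comparisons. Genes at an unadjusted p below 0.05 numbered 1397 in WT cells, 713 in WWP2-/- cells and 1424 for the interaction, and DESeq2's Wald test called 27, 44 and 10 genes. These comparisons share groups with those between genotypes, so their values are not independent of the ones above.

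In WT cells the log2 fold changes of the abundant chains with TGFb1 were 0.90 (SE 0.56) for Col1a1, 0.77 (SE 0.54) for Col1a2, 1.10 (SE 0.79) for Col3a1 and 0.64 (SE 0.39) for Col5a2, with adjusted p from 0.841 to 0.885. For each of the 4, all treated WT libraries with Xist, 4 of the 5, were above all 5 untreated WT libraries, and WT TGFb1 replicate 3 was not. The other 5 members had log2 fold changes from -0.55 to 0.82 in WT cells. In WWP2-/- cells Col1a1 (-0.03, SE 0.56) and Col1a2 (-0.01, SE 0.54) had values near 0, and Col5a3 (1.15, SE 0.55, unadjusted p = 0.0485) and Col27a1 (0.78, SE 0.31, unadjusted p = 0.0212) had the smallest p-values, both with an adjusted p of 1. The same 2 genes had the smallest p-values for the interaction, 0.0392 for Col5a3 (1.7, SE 0.77) and 0.0434 for Col27a1 (0.95, SE 0.44), with adjusted p of 0.680 and 0.691. An effect of TGFb1 that differs between the genotypes was thus not detected for any member.

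Together the 9 transcripts took 1.42% ± 0.618 (SD, n = 5) of all counts in untreated WT cells and 2.33% ± 0.869 in treated WT cells. The share was 0.560% ± 0.251 in untreated and 0.640% ± 0.417 in treated WWP2-/- cells. The lowest WT libraries were those without Xist, WT replicate 4 at 0.361% and WT TGFb1 replicate 3 at 0.971%, and the highest WWP2-/- library was TGFb1 replicate 3 at 1.36%. These shares are of all poly-A RNA in a dish, in which fewer cells of a type and less RNA per cell cannot be told apart.

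The make-up of the family is given per exon length as a description, with no test. Col1a1 was 40.5% ± 3.35 of the 9 transcripts in WT and 47.45% ± 8.11 in WWP2-/- cells untreated, and 44.4% ± 2.45 and 40.1% ± 7.56 with TGFb1, so its means were ordered in opposite ways and the ranges overlapped in both. Col1a2 was 22.2% ± 3.67 and 17.0% ± 6.04 untreated and 23.4% ± 2.82 and 14.6% ± 7.45 with TGFb1. Col5a1 was 5% ± 2.55 in treated WT and 13.45% ± 6.59 in treated WWP2-/- cells. Col5a3 was 0.268% ± 0.304 in treated WT and 4.38% ± 2.90 in treated WWP2-/- cells, and it reached 10.8% in WWP2-/- replicate 3 and 9.51% in WWP2-/- TGFb1 replicate 1, the 2 libraries low in Acta2. In WT cells the highest share of Col5a3 was 4.59%, in WT replicate 4. The highest among treated WT libraries was 0.812%, in WT TGFb1 replicate 3.

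**Figure D3:**
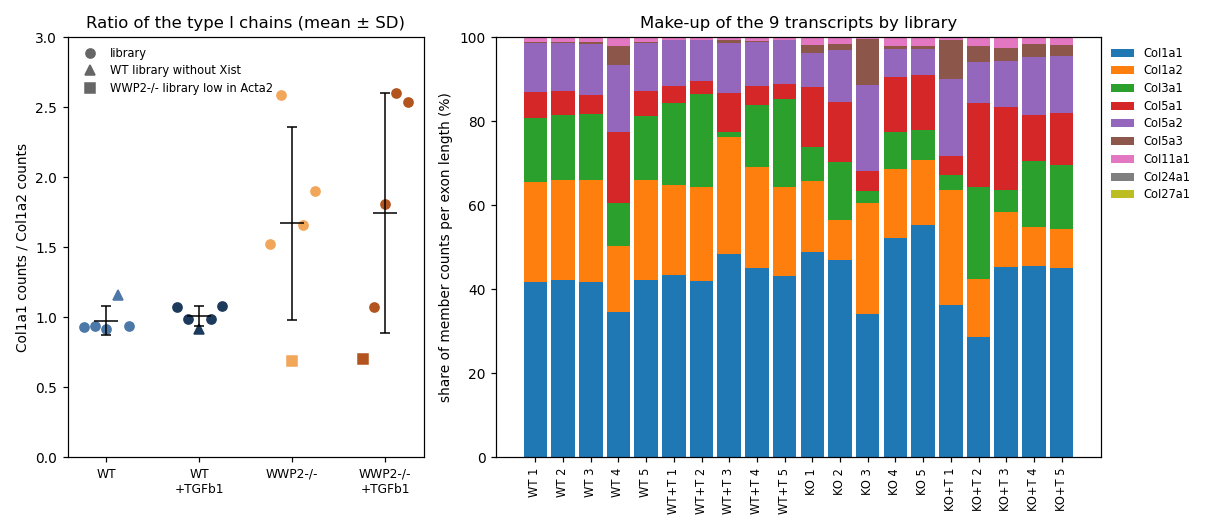
Left, the ratio of Col1a1 to Col1a2 counts in each library by group, with the mean and SD in black (triangles, WT without Xist; squares, WWP2-/- low in Acta2). Right, the share of each fibrillar collagen among the counts of the 9, divided by exon length, in each library (KO, WWP2-/-; +T, with TGFb1). The WT ratios lie between 0.912 and 1.16 and the WWP2-/- ratios between 0.683 and 2.60.

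Type I collagen is mostly a trimer of 2 chains from Col1a1 and 1 from Col1a2, so the balance of both transcripts was compared. The measure was a ratio of counts within each library, which does not depend on library size. It was not scaled by exon length, so it is not a ratio of molecules. In WT cells the ratio of Col1a1 to Col1a2 was 0.926, 0.937, 0.917, 1.16 and 0.938 untreated and 1.07, 0.989, 0.912, 0.988 and 1.08 with TGFb1. WWP2-/- cells had ratios of 1.52, 2.59, 0.683, 1.66 and 1.90 untreated and 0.698, 1.07, 1.81, 2.60 and 2.54 with TGFb1. The WT ratios stayed within a narrow range, and 7 of the 10 WWP2-/- ratios were above every WT ratio while 2, those of the libraries low in Acta2, were below every one.

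The mean ratio was 0.977 ± 0.105 (SD, n = 5) in WT and 1.67 ± 0.688 in WWP2-/- cells untreated, and 1.01 ± 0.0696 and 1.74 ± 0.853 with TGFb1. By the exact two-sided permutation test, whose smallest possible p with 5 libraries against 5 is 0.00794, the genotypes differed with p = 0.0476 untreated and p = 0.143 with TGFb1. After adjustment over the 4 comparisons these became 0.190 and 0.286 in the exact permutation test, so the difference in mean ratio did not pass. TGFb1 moved the mean ratio by 0.0314 in WT (exact p = 0.611) and by 0.0736 in WWP2-/- cells (exact p = 0.849). Without the WT libraries that lack Xist the change in WT was 0.102 (exact p = 0.0286, not adjusted), and the untreated difference between genotypes was 0.741 (exact p = 0.0794, not adjusted). Without the 2 WWP2-/- libraries low in Acta2 the difference with TGFb1 was 0.998 (exact p = 0.0238, not adjusted).

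The members were next compared for how they varied together from library to library, with each group's mean removed. Pearson's r was computed for the 36 pairs over 20 libraries, on log2(CPM + 0.5), with 100000 permutations of the libraries within groups. At an adjusted p below 0.05 over the 36 pairs, 18 pairs were called, 17 with a positive and 1 with a negative r, and Spearman's rho called 17. Of the 17 positive pairs, 12 had r above 0.5 without the 2 libraries farthest from the median of the first gene of the pair. The libraries may share animals or cultures, so these p-values assume more independence than is known.

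The closest pair was Col5a1 and Col11a1, with r = 0.96 (permutation p = 1e-05, the smallest that 100000 permutations can give, adjusted p = 0.00018) and rho = 0.93 (permutation p = 3e-05, adjusted p = 0.000432). The r was 0.86 within the 10 WT libraries, 0.98 within the 10 WWP2-/- libraries, 0.95 without the 2 libraries farthest from the median of Col5a1 and 0.94 without the 4 libraries that stood apart. Col1a2 and Col5a2 (r = 0.87, permutation p = 5e-05, adjusted p = 0.00045; rho = 0.84, permutation p = 4e-05) held at 0.84 without the 2 farthest libraries and at 0.80 without the 4. Col1a1 and Col1a2 had r = 0.84 (permutation p = 0.0012, adjusted p = 0.0048) and rho = 0.90 (permutation p = 5e-05), with r = 0.70 without the 2 farthest and 0.90 without the 4.

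Several called positive pairs were weaker without the 4 libraries that stood apart. For Col3a1, r fell from 0.74 to 0.33 with Col1a1, 0.70 to 0.37 with Col11a1 and 0.66 to 0.33 with Col5a2. For Col24a1 it fell from 0.69 to 0.35 with Col1a2 and 0.76 to 0.41 with Col5a2. Other called pairs were closer, such as Col1a2 and Col11a1 (0.53 to 0.96) and Col5a1 and Col5a2 (0.44 to 0.82). The relations of Col5a3 also changed without the 4 libraries. The negative pair, Col3a1 and Col5a3, had r = -0.63 (permutation p = 0.00308, adjusted p = 0.0111) and rho = -0.29 (permutation p = 0.201), and its r was 0.19 without the 4 libraries. Without the same 4, all 8 pairs of Col5a3 with another member had a positive r, from 0.19 to 0.70, whereas 7 of the 8 were negative over all 20 libraries. Col3a1 and Col24a1 were not called (r = 0.57, permutation p = 0.0402, adjusted p = 0.0724), with r = 0.93 within the WT and -0.92 within the WWP2-/- libraries, 0.50 without the 4 and -0.23 without WT replicate 4 and WT TGFb1 replicate 3 alone. Col27a1 was paired with no gene but Col5a2 (r = 0.55, permutation p = 0.0173, adjusted p = 0.0389, with rho = 0.45, permutation p = 0.0405, adjusted p = 0.081; r = 0.46 without the 4), and its r with the other 7 members was 0.37 or less.

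**Figure D4:**
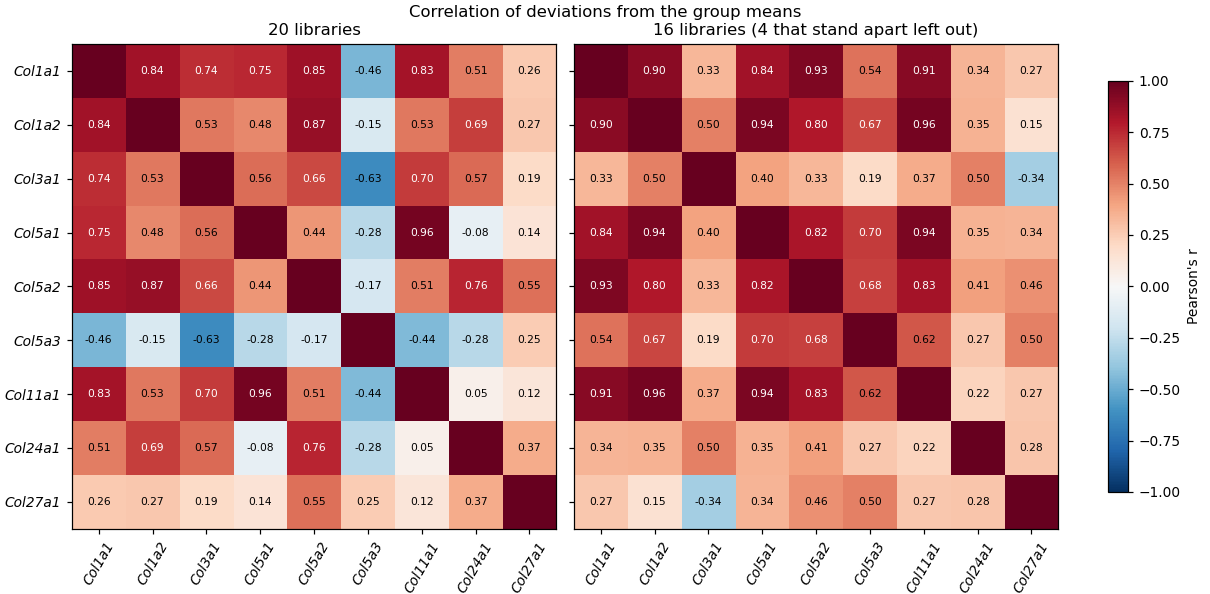
Pearson's r between the deviations of each pair of fibrillar collagens from their group means, on log2(CPM + 0.5), over all 20 libraries (left) and without the 2 WT libraries that lack Xist and the 2 WWP2-/- libraries low in Acta2 (right). Col5a1 and Col11a1 have r = 0.96 and 0.94, and the values of Col5a3 turn from mostly negative to positive.

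Among 10952 genes with a mean of at least 5 CPM, the genes whose deviations were most like those of a member are given by r over the 20 libraries, as a description. For Col5a1 they were Loxl2, a lysyl oxidase that crosslinks collagen (r = 0.973), Plod2, a lysyl hydroxylase of collagen (0.967), and Col11a1 (0.963), the only member among the 3 nearest genes of another. For Col11a1 they were Pcdh18 (0.970), Dmpk (0.969) and Ccng1 (0.968). For Col24a1 they were Olfml3 (0.973), Gli2 (0.969) and Tmem45a (0.968), and for Col1a2 they were Lgalsl (0.974), Prr5 (0.960) and Kctd15 (0.959). Col3a1 was nearest to Prickle1 (0.968), Limch1 (0.966) and Sfrp4 (0.941), Col1a1 to Gucy1b1 (0.948), Ak5 (0.943) and Fat4 (0.936), and Col5a2 to Cpz (0.946), Sulf1 (0.941) and Fibin (0.938). The nearest genes were less close for Col5a3, with Mllt11 (0.901), Btbd11 (0.891) and Gm43737 (0.885), and least close for Col27a1, with Hoxa5 (0.758), Dock9 (0.678) and Stk38 (0.667).

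The rest of the pathway that makes, assembles and degrades collagen fibrils was followed with 86 genes in 9 lists, all of which were tested. With TGFb1, 14 of the 86 were lower in WWP2-/- cells and 2 were higher, which is 18.6% of them, against 3.96% and 2.1% of all genes. Their median log2 fold change was -0.51. The calls rose to 25 lower and 5 higher without the WT libraries that lack Xist. They rose to 25 lower and 7 higher without the WWP2-/- libraries low in Acta2. With Xist as a covariate they came to 4 lower and 2 higher, and without WT TGFb1 replicate 2 to 5 lower and 1 higher. Calls over all genes moved from 1238 in the main fit to 3314, 3454, 585 and 464 in these settings. Leaving out the WT libraries that lack Xist or the WWP2-/- libraries low in Acta2 also made the division by Xist more unequal.

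Of 18 genes for the folding, hydroxylation and export of procollagen, 4 were lower and none was higher with TGFb1. P4ha3, a subunit of prolyl 4-hydroxylase, was at 8.94 ± 2.84 CPM in WWP2-/- against 38.0 ± 4.67 CPM in WT cells (log2 fold change -2.22, SE 0.49, adjusted p = 0.0149). P3h3, a prolyl 3-hydroxylase, was at 78.8 ± 19.0 and 148 ± 5.21 CPM (-1.03, SE 0.25, adjusted p = 0.0251), and Serpinh1, the collagen chaperone HSP47, at 1179 ± 242 and 2116 ± 409 CPM (-0.98, SE 0.23, adjusted p = 0.0200). The median of the list was -0.41, and 16 of its 18 genes had a negative value.

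Of 9 genes for the cleavage of procollagen 1 was called, Pcolce, an enhancer of the C-proteinase, at 229 ± 88.9 CPM in WWP2-/- against 1081 ± 443 CPM in WT cells (-2.40, SE 0.47, adjusted p = 0.0109). Among 6 crosslinking enzymes, 2 were lower. Lox, the lysyl oxidase that starts crosslinking, was at 1242 ± 639 and 4598 ± 1626 CPM (-2, SE 0.53, adjusted p = 0.0340), and Loxl1 at 450 ± 129 and 982 ± 65.1 CPM (-1.25, SE 0.30, adjusted p = 0.0207).

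The list of fibril assembly and fibril surface proteins held the most calls, 6 of 13, all lower, with a median of -3.30. Ogn, the small leucine-rich proteoglycan osteoglycin, was at 6.14 ± 3.34 CPM in treated WWP2-/- against 360.0 ± 208 CPM in treated WT cells (-5.99, SE 1.05, adjusted p = 0.00706). Prelp, of the same protein class, was at 1.2 ± 0.998 and 50.4 ± 26.4 CPM (-5.57, SE 1.07, adjusted p = 0.0100), and Col14a1, a collagen of the fibril surface, at 17.9 ± 19.0 and 264 ± 78.3 CPM (-3.97, SE 1.09, adjusted p = 0.0379). Levels of Dcn, the proteoglycan decorin of this list, followed the division by Xist, at 212 to 1410 CPM in the 11 libraries with Xist and at 7.54 to 54.9 CPM in the 9 without.

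Genes of collagen breakdown and uptake were called in both directions. Mmp9, a gelatinase, was at 17.1 ± 20.2 CPM in treated WWP2-/- against 0.472 ± 0.311 CPM in treated WT cells (5.18, SE 1.15, adjusted p = 0.0158), and Mrc2, an endocytic collagen receptor, was at 250 ± 107 and 876 ± 364 CPM (-1.93, SE 0.54, adjusted p = 0.0416). The other 10 genes of this list were not called. The summed level of 10 macrophage markers was 71.9 to 468 CPM in treated WT and 84.4 to 3751 CPM in treated WWP2-/- libraries, and its part in these values was not tested.

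None of the 7 collagen receptors and none of the 10 regulators of collagen transcripts was called with TGFb1. Of 10 known TGFb1 response genes 1 was called higher. The remaining fibrillar collagen genes, Col2a1 (0.0617 to 23.5 CPM) and Col11a2 (3.66 to 26.1 CPM), were not called. In untreated cells 1 of the 86 genes was called, or 1.16%. This was Prelp, at 1.75 ± 0.994 CPM in WWP2-/- against 74.8 ± 51.3 CPM in WT cells (-5.52, SE 1.06, adjusted p = 0.0264). With Xist as a covariate, 0 of the 86 were called in untreated cells, so the call of Prelp was lost. Without the WT libraries that lack Xist, 14 of the 86 were lower in untreated cells. Calls over all genes then rose from 148 to 1103. No gene of the lists was called between treated and untreated cells.

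**Figure D5:**
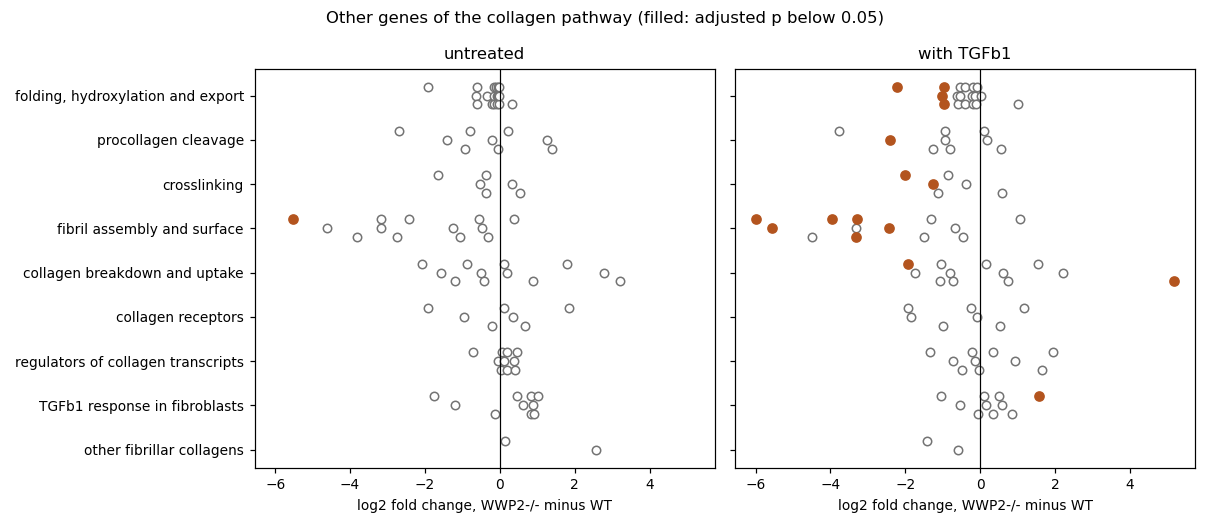
Log2 fold change of WWP2-/- over WT cells for each gene of 9 lists around collagen fibrils, untreated (left) and with TGFb1 (right), 1 point per gene, filled where the adjusted p was below 0.05. With TGFb1, 14 genes are called lower and 2 higher, and 6 of the 14 are in the list of fibril assembly and surface.

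Markers of other cells were present in all 4 groups. The 8 fibroblast markers summed to 2557 to 5363 CPM in every library, and none was below 1 CPM in all libraries. Vim made up most of this sum, at a mean of 2480 CPM in treated WT and 2945 CPM in treated WWP2-/- cells. The other 7 markers all had a lower mean in treated WWP2-/- than in treated WT cells, among them Lum (1.18 and 24.9 CPM), Thy1 (5.39 and 43.1 CPM), Fbln1 (5.41 and 48 CPM), Pdgfra (21 and 92.8 CPM) and Col6a1 (24.1 and 115 CPM), and the same 7 had a lower mean in untreated WWP2-/- than in untreated WT cells. The part of this in the collagen values was not tested. The 6 myofibroblast markers summed to 2036 to 4452 CPM in all but WWP2-/- replicate 3 and WWP2-/- TGFb1 replicate 1, where they summed to 433 and 573 CPM. Macrophage markers summed to 4269 CPM in WT replicate 4, the highest of all libraries, and 10 tubular markers to 13.6 to 810 CPM, with 2 of the 10 below 1 CPM throughout. The 8 endothelial markers summed to 7.97 to 198 CPM. In WT replicate 4 the low collagen share thus came with a high macrophage sum. In WT TGFb1 replicate 3 the macrophage sum was 468 CPM, the highest of the treated WT libraries. WWP2-/- replicate 2 and WWP2-/- TGFb1 replicates 4 and 5 had macrophage sums of 1981, 3751 and 2790 CPM. Their collagen shares were 0.345%, 0.459% and 0.425%. WWP2-/- replicate 3 and WWP2-/- TGFb1 replicate 1 had low macrophage sums, 92.3 and 84.4 CPM, and shares of 0.287% and 0.326%. The part of these cells in the collagen values was not tested.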

How the data were processed

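RNA of 20 samples was poly-A selected and sequenced as paired-end reads. The authors aligned the reads with STAR to mouse GRCm38, counted read pairs over exons with featureCounts and deposited raw counts per gene, which keep no strand or isoform here. Of 51826 genes, 16652 had no count. Positions and exon lengths came from GENCODE M21 (GRCm38), and promoters from RefSeq.

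Genes reaching 5 counts in 5 or more libraries entered edgeR 4.0.16 (limma 3.58.1, R 4.3.3), using TMM normalization, a quasi-likelihood fit of 4 groups over all 20 libraries and Benjamini-Hochberg adjustment over 20407 genes with a threshold of 0.05. The script was tested on simulated data. DESeq2 1.42.0 was an alternative. Ratios were compared by the exact permutation test over 252 arrangements. Correlations used deviations from group means of log2(CPM + 0.5) with TMM library sizes (numpy 2.4.6, scipy 1.17.1).

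No 2 libraries were identical. Totals of 47520759 to 73063697 counts leave the spread between libraries, not counting error, as the limit. The 9 genes and the pathway and marker lists were chosen with earlier results of these data known. Named besides the 9 were Wwp2, Xist and markers as checks, the 3 genes most like each member, and up to 3 called genes per list and comparison with the largest fold change. Dcn and the fibroblast markers given by name were chosen after their values were seen. The alternatives were another normalization, filter, test, set of groups and pseudocount, a replicate block, Xist as a covariate and each library left out in turn. Leaving out the WT libraries without Xist or the WWP2-/- libraries low in Acta2 was chosen after seeing the data. The values of 1 called gene of the TGFb1 response list are not reported here.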

Additional observations from a re-analysis of the deposited data

Results flagged for a closer look

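The 9 genes and the ratio of Col1a1 to Col1a2 in 4 groups gave 40 groups of 5 values. Of these, 9 held a library whose gap to its nearest neighbour was more than 0.71 of the group's range. Independent normal values pass this cut-off in about 1 of 20 groups. The 40 groups share libraries and genes that vary together, so that rate is no measure for the 9. WWP2-/- TGFb1 replicate 3 was far above its group for Col1a1 (4811 CPM), Col5a2 (1718 CPM) and Col27a1 (9.5 CPM). The libraries without Xist were far above the other WT libraries for Col5a3, with 129 CPM in WT replicate 4 and 60.8 CPM in WT TGFb1 replicate 3. The WWP2-/- libraries low in Acta2 were far above their groups for Col24a1, at 1.5 CPM in WWP2-/- replicate 3 and 2.62 CPM in WWP2-/- TGFb1 replicate 1, and the former also for Col5a3 (236 CPM). The ratio of Col1a1 to Col1a2 was 1.16 in WT replicate 4, far above the other untreated WT libraries.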

How the results depend on the processing

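Of the alternative values for single genes, 849 kept their direction and side of the threshold, 58 lost a call, 9 gained one and 47 changed sign, and the causes were not tested. The number of the 9 genes called with TGFb1 (5) was 3 with only the groups compared, 2 with Xist as a covariate and 2 to 6 with single libraries left out. Untreated (3), it was 0 with only the groups compared, 1 with Xist as a covariate, 5 without the WT libraries lacking Xist and 0 to 4 with single libraries left out, the 4 being without WT replicate 4. Replicate numbers did not pair the libraries (r between same-numbered libraries from -0.522 to 0.443). Some libraries matched one of another number across treatment. The r was 0.907 for WWP2-/- replicate 3 with WWP2-/- TGFb1 replicate 1 and 0.766 for WWP2-/- replicate 2 with WWP2-/- TGFb1 replicate 5. It was 0.727 for WT replicate 4 with WT TGFb1 replicate 3. A pairing of libraries by such matches was not tested. With the replicate block, 4 genes were called with TGFb1, all but Col1a1 (-2.11, adjusted p = 0.0919), and 0 untreated. Calls over all genes were 670 and 1 with the replicate block, and 569 and 1 with only the groups compared.

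The genotype difference in the ratio of Col1a1 to Col1a2 was 0.465 to 0.941 untreated and 0.522 to 0.998 with TGFb1 when single libraries were left out. With TGFb1 it was 0.998 (exact p = 0.0238) without the WWP2-/- libraries low in Acta2. Untreated it was 0.657 on the log2 scale (exact p = 0.0794) and 0.741 without the WT libraries lacking Xist (exact p = 0.0794). The TGFb1 difference in WT was 0.102 without them (exact p = 0.0286), and 0.0136 to 0.0783 with single libraries left out, while in WWP2-/- cells it was -0.173 to 0.335. Pairs with r above 0.5 numbered 13 to 19 with single libraries left out.

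The log2 fold changes that changed sign were those of genes not called. With TGFb1, Col5a1 was -0.17 with the replicate block, -0.75 with Xist as a covariate, -0.03 without the WT libraries lacking Xist and -0.90 to 0.33 with single libraries left out, and Col11a1 was -0.20, -0.84, -0.14 and -0.95 to 0.36. Untreated Col5a3 was -0.05 without the WWP2-/- libraries low in Acta2 and -0.03 to 1.33 with single libraries left out. For TGFb1 in WWP2-/- cells, Col1a1 was 0.00 with DESeq2 size factors or the Wald test, and Col1a2 was 0.02 with both, 0.01 with the filter of 10 counts, 0.07 with Xist and 0.01 without the WT libraries lacking Xist. With the replicate block within genotype, Col5a1 was -0.08 and Col11a1 -0.22 in that comparison, and the interaction was -0.41 for Col5a1 and -0.16 for Col5a2, the latter -0.14 with the plain block. With single libraries left out, the response in WWP2-/- cells was -0.75 to 0.28 for Col1a1, -0.55 to 0.19 for Col1a2, -0.31 to 0.90 for Col5a1, -0.55 to 0.80 for Col11a1 and -0.43 to 1.02 for Col24a1, that in WT cells -0.81 to 0.02 for Col5a3, and the interaction -0.61 to 0.62 for Col5a1, -0.40 to 0.29 for Col5a2, -0.32 to 1.03 for Col11a1 and -1.23 to 0.19 for Col24a1.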
